A study of Mus musculus with 6 samples.

Results

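Immediate early genes were followed in the RNA of dissected mouse midbrain at E14.5. The 10 genes Fos, Fosb, Jun, Junb, Egr1, Egr2, Npas4, Arc, Ier2 and Dusp1 were chosen by name, with earlier results of these data known, and all 10 were found among the 26852 genes of the deposited table. The mutant (cKO) embryos were Lmx1b fl/fl;Pitx3-Cre and the control embryos were Lmx1b wt/wt;Pitx3-Cre, all on a background labelled C57Bl/6 (C57BL/6J in the study's methods) and with no other treatment named, and 3 libraries were made for each genotype from embryos pooled in pairs. Cre is driven by the Pitx3 locus in both groups, so both groups carry the Cre allele and Lmx1b can be lost only in Pitx3-positive midbrain dopamine (mdDA) neurons and their descendants, while the dissected tissue holds many other cells. The series was made to study what Lmx1b does in these neurons, and the comparison described here asks whether RNA of immediate early genes differed between the genotypes.

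Immediate early genes are switched on within minutes of a stimulus, without new protein being made first, and their RNA is short-lived. Calcium entry, growth factors and stress reach them through the MAP kinase pathway and through the transcription factors SRF, ELK, CREB and MEF2, which are already present in the resting cell. Many of their products are transcription factors that set a later wave of target genes, and in neurons they are widely used to mark recent activity.

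The promoters are shown because these genes share their inputs. RefSeq start sites on GRCm38.p6 gave a window from 250 bases before to 50 bases after the start for 7 of the 10 genes, and Egr1, Arc and Ier2 were not in the table. The CRE core, TGACG, which is part of the CREB site TGACGTCA, was searched on both strands and was found in 6 of the 7 windows (Jun had none), beside 23.0% of the 27025 genes in the table and 14 of 25 other early response genes. The full CRE TGACGTCA was found in 1 of the 7 (Dusp1), beside 2.03% of all genes, and each full CRE holds the core on both strands. The CArG box, the letters known as the SRF site, was found in 1 of the 7 (Egr2), beside 1.81% of all genes. The EGR letters GCGTGGGCG or GCGGGGGCG were found in 1 of the 7 (Fosb), beside 3.93%. The AP-1 letters TGANTCA were found in none of the 7, beside 8.97%. A match is a run of letters and was not tested as a bound site. Letters more than 250 bases before the start were not searched, so a gene without a match may still hold the site farther away. The search covered the whole window, and the shorter stretches below are the parts printed. They read 5' to 3' on the strand of the gene, and capitals mark a CRE core or full CRE on either strand and, in Egr2, also the CArG box. Fos has a pair of cores, at chr12:85473690-85473849. Egr2, from the RefSeq start with the most matches of 5, has a CArG box between a pair of cores, at chr10:67537669-67537828. Npas4 has a pair of cores within 30 bases, at chr19:4990129-4990158 on the minus strand, a stretch that lies inside an exon of a longer Npas4 transcript. Dusp1 has the full CRE, at chr17:26508520-26508672 on the minus strand, and is shown up to where an exon of the gene begins. Jun, the most abundant of the 10 per length, has no match, at chr4:95052263-95052422 on the minus strand.
Fos: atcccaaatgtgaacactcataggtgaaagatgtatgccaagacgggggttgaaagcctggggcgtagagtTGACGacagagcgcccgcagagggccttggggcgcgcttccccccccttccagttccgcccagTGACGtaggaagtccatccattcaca
Egr2: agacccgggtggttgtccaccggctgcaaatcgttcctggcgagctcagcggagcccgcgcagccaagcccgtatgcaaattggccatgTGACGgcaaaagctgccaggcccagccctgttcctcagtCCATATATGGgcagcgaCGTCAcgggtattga
Npas4: ccgttcgaCGTCAcgggaTGACGtcggaag
Dusp1: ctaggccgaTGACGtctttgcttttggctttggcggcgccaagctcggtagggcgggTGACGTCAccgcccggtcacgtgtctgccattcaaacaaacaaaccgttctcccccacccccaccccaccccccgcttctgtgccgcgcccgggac
Jun: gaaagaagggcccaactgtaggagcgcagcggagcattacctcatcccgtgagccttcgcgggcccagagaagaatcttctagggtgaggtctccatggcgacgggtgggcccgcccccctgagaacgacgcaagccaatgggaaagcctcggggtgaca

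The deposited table gives the mean normalized count of each genotype, that is, reads divided by a size factor for each library. The whole reads behind these means were recovered for 26355 genes (98.1%), with 20629683 to 25051860 reads per library. Which sample a recovered library came from is not known beyond its genotype, and the letters a, b and c rank the libraries of a genotype from the largest size factor to the smallest. Lmx1b was at 1257 to 1455 normalized counts in the cKO and 1352 to 1474 in the control, so its total count did not check the labels. The midbrain markers En1, En2, Otx2 and Pax7 were present in every library, at 763 or more normalized counts. The cKO library c stood apart in bone genes, with Col1a1 at 6097 normalized counts, beside 532 in cKO a, 14.8 in cKO b and 10.6 to 11.5 in the control. In bulk tissue, fewer cells of a type and less RNA per cell cannot be told apart.

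No immediate early gene passed the test for a difference between the genotypes. The mean normalized count reached 10 for 8 of the 10 genes, which were tested with limma among 16680 genes. At an unadjusted p-value under 0.05, 0 of these 8 were called. Over all genes tested, 466 (2.79%) had an unadjusted p-value under 0.05, 197 of them higher in the cKO (1.18%) and 269 lower (1.61%), while 0 genes (0%) passed with limma after Benjamini-Hochberg adjustment. The libraries of the genotypes overlapped for each of the 10 genes, beside 7.67% of all genes tested whose libraries did not overlap. Fitted log2 fold changes, cKO over control, were positive for 4 of the 8 and negative for 4, with a median of -0.01. The median absolute change of the 8 was 0.08, beside 0.07 for all genes tested. Exact two-sided permutation tests of each gene gave p-values from 0.3 to 0.9 over the 10 genes, where 3 libraries against 3 cannot go below 0.1. Without cKO library c, or without cKO library b, the count of genes with a p-value under 0.05 was again 0 of 8, and it was 1 without control library b, as described for Fos.

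**Figure D1:**
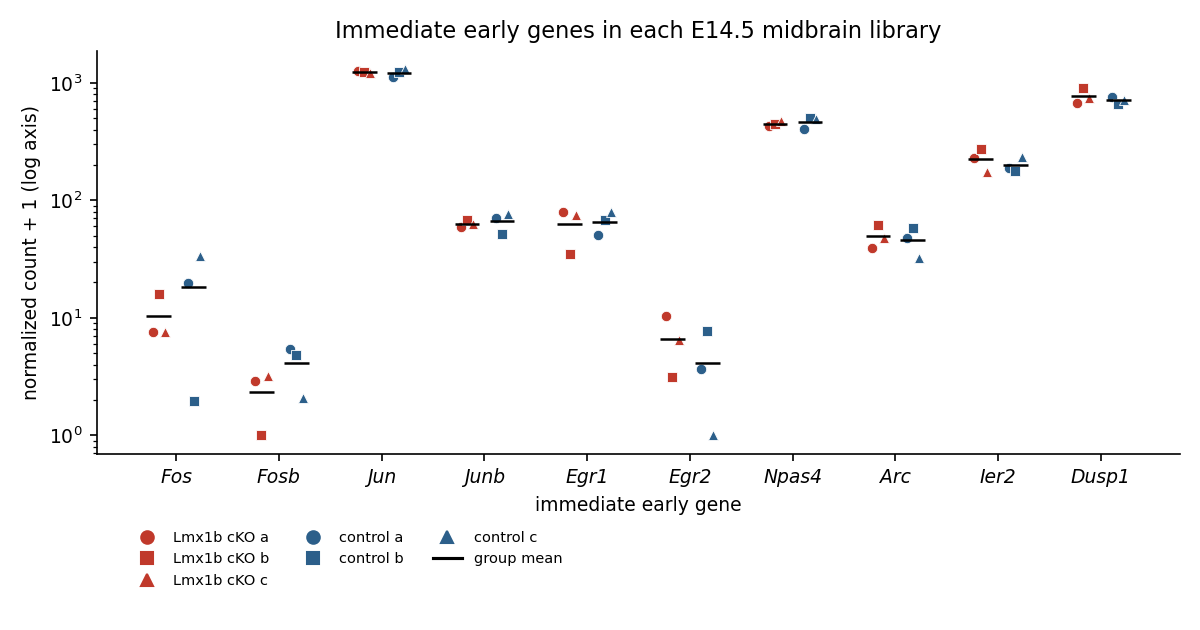
Normalized count plus 1 on a log axis for the 10 immediate early genes, with 1 point per library, red for the Lmx1b cKO and blue for the control, and a line at the group mean. Red and blue points overlap for each gene, and the points of Fos, from 0.96 to 32.4 normalized counts, lie farthest apart among the 8 genes tested.

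Levels were compared between genes per kb of exon. Jun was the highest of the 10 at 384 normalized counts per kb, above 83.4% of genes with recovered reads. That share leaves out the 497 genes that had more reads than the recovery covered. Dusp1 came next at 224, then Ier2 at 139 and Npas4 at 110. Junb followed at 27.7, Arc at 15.3, Egr1 at 14.1, Fos at 5.65, Egr2 at 1.29 and Fosb at 0.357 normalized counts per kb. The ranges over the 6 libraries overlapped between neighbours for Ier2 and Npas4, for Arc and Egr1, for Egr1 and Fos, for Fos and Egr2, and for Egr2 and Fosb. Jun, Dusp1 and Junb were apart from their neighbours in this order. By their means, Fos, Egr2 and Fosb were therefore the lowest of the 10 in this tissue, below Egr1 and Arc. Npas4, which is known for its dependence on calcium in neurons, was well above all of these per length.

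**Figure D2:**
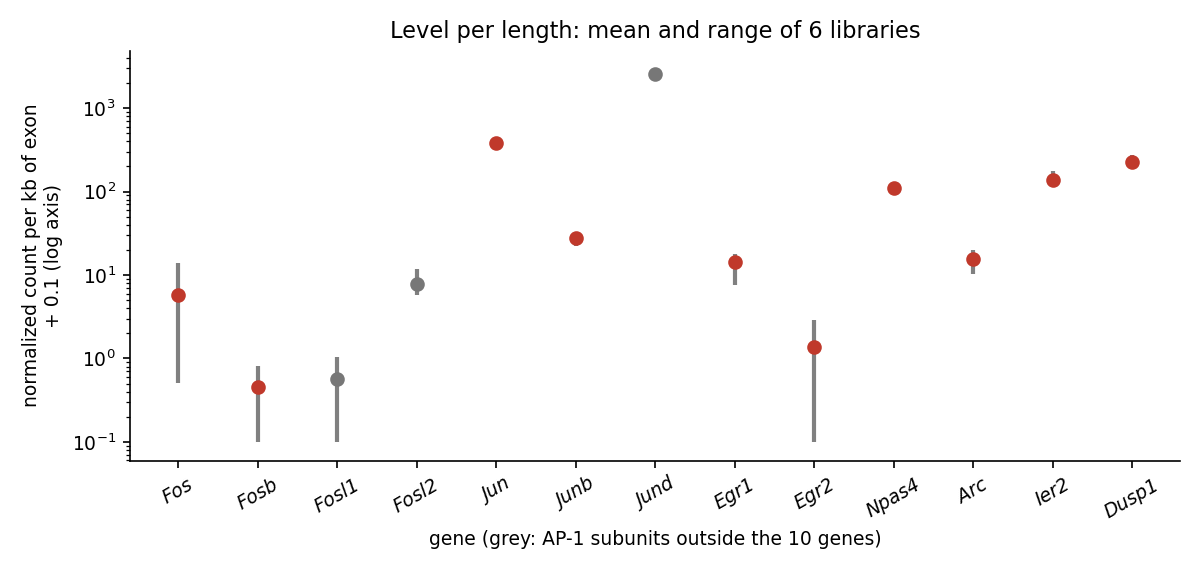
Normalized count per kb of exon plus 0.1, on a log axis, for the 10 immediate early genes (red) and 3 further AP-1 subunits (grey), as the mean (point) and the range (line) of 6 libraries. Jund stands highest at 2576 normalized counts per kb and Fosb lowest at 0.357.

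Fos, Fosb, Jun and Junb encode subunits of AP-1, a dimer in which a Fos protein needs a Jun partner while Jun proteins can also pair among themselves. Fos (ENSMUSG00000021250, chr12:85473890-85477273 on GRCm38, plus strand), with the pair of CRE cores printed above, was at 6.56, 14.8 and 6.49 normalized counts in cKO libraries a, b and c and at 18.6, 0.96 and 32.4 in control libraries a, b and c. These values come from 7, 14 and 6 reads in the cKO and 21, 1 and 30 reads in the control. Control c was the highest and control b the lowest of all 6 libraries, with the cKO libraries between them. The counting interval of control b, at most 5.35 normalized counts, lay below that of control a, at least 11.5, and that of control c, at least 21.9, so these libraries of 1 genotype differed by more than counting error. The fitted log2 fold change was -0.07 (SE 0.98, 95% interval -2.22 to 2.09, limma adjusted p = 1.00, exact permutation p = 0.9), while the log2 ratio of the deposited means was -0.90. Without control library b, the fitted log2 fold change was -1.43 and passed the unadjusted limma threshold of 0.05, and without control library c it was 0.74. The direction also turned without control a (0.48), without cKO a (0.13) and without cKO c (0.11), so the call for Fos rested on leaving out control b and its direction on which libraries were used. The interval with all 6 libraries leaves room for a change of up to 4.25-fold higher or down to 0.215-fold.

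Fosb (ENSMUSG00000003545, chr7:19302696-19310051, minus strand) was below the minimum for the test. It was at 1.87, 0 and 2.16 normalized counts in the cKO and at 4.42, 3.84 and 1.08 in the control. With 4 reads in the cKO and 10 in the control, the cKO to control ratio was 0.422 with a 95% counting interval from 0.0965 to 1.46, so no difference was detectable at this depth. Each cKO library had at most 3 reads, which is taken here as the limit of detection.

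Jun (ENSMUSG00000052684, chr4:95049034-95052222, minus strand) was at 1247, 1226 and 1214 normalized counts in the cKO and at 1116, 1231 and 1307 in the control. All 3 cKO values lay within the range of the control values. Its log2 fold change was 0.02 (SE 0.07, 95% interval -0.14 to 0.19, limma adjusted p = 1.00, exact permutation p = 0.9), the narrowest interval of the 8 genes, which spans 0.907-fold to 1.14-fold. Of its 3189 exon bases, 232 are shared with Junos on the opposite strand, and the use of strand in counting is not given in the sources used here. Junb (ENSMUSG00000052837, chr8:84974484-84978718, minus strand) was at 58.1, 66.6 and 61.7 normalized counts in the cKO and at 69.0, 50.9 and 75.6 in the control. The control libraries again enclosed the cKO libraries, with control b lowest and control c highest as for Fos. Its log2 fold change was -0.05 (SE 0.25, 95% interval -0.60 to 0.50, limma adjusted p = 1.00, exact permutation p = 0.9), and 173 of its exon bases are shared with Prdx2 on the opposite strand. The log2 fold change of Junb was positive without cKO a (0.003), control a (0.01) or control c (0.05). Without control b it was -0.22 and the libraries did not overlap, beside 17.3% of all genes tested without that library.

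Among 10 further genes of the AP-1 and related bZIP families, 7 were tested and 0 had a limma p-value under 0.05, beside 2.79% of all genes tested. Of the 7, 6 were lower and 1 was higher, with a median log2 fold change of -0.15. Jund, an AP-1 subunit that is made without a stimulus in most cells, was the most abundant of them, at 3633, 4850 and 3861 normalized counts in the cKO and at 4208, 4455 and 4776 in the control (log2 fold change -0.13, limma adjusted p = 1.00), and 877 of its exon bases are shared with the antisense gene Gm11175. Jund held 84.0% to 87.6% of the normalized counts per kb of Jun, Junb and Jund together in each of the 6 libraries. The sum per kb of Fos, Fosb, Fosl1 and Fosl2 was 9.94, 11.97 and 12.28 in the cKO and 15.7, 13.6 and 21.7 in the control, and was 0.359% to 0.653% of all 7 AP-1 subunits. This sum did not overlap between the genotypes, beside 7.67% of all genes tested whose libraries did not overlap. The sum was formed after its members' values were seen and was not tested. Fosl2, a Fos protein that is made later and lasts longer than Fos, held 33.4% of the sum in control c and 85.5% in control b.

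Egr1 and Egr2 encode zinc finger transcription factors that bind GC-rich sites. Egr1 (ENSMUSG00000038418, chr18:34859823-34864984, plus strand) was at 78.7, 33.8 and 73.6 normalized counts in the cKO and at 49.5, 66.3 and 77.8 in the control. The cKO library b was the lowest of the 6, with a counting interval of 23.1 to 47.7 that lay below those of the other 2 cKO libraries (62.8 to 97.4 and 57.2 to 93.3). The log2 fold change was -0.09 (SE 0.34, 95% interval -0.83 to 0.65, limma adjusted p = 1.00, exact permutation p = 0.9), and without cKO library b it was 0.28. Egr2 (ENSMUSG00000037868, chr10:67535475-67542188, plus strand), the gene with the CArG box printed above, was at 9.37, 2.11 and 5.41 normalized counts in the cKO and at 2.65, 6.72 and 0 in the control. It was below the minimum for the test, and its 17 reads in the cKO and 10 in the control give a ratio of 1.79 with a 95% counting interval from 0.775 to 4.38.

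Npas4 encodes a transcription factor induced by calcium in neurons, and Arc encodes a synaptic protein that acts in the removal of AMPA receptors from the membrane. Npas4 (ENSMUSG00000045903, chr19:4984355-4990316, minus strand) was at 424, 444 and 475 normalized counts in the cKO and at 402, 500 and 487 in the control. Control a was the lowest and control b the highest library, so the control again enclosed the cKO. The log2 fold change was -0.04 (SE 0.12, 95% interval -0.29 to 0.21, limma adjusted p = 1.00, exact permutation p = 0.8), an interval from 0.817-fold to 1.16-fold. Arc (ENSMUSG00000022602, chr15:74669083-74672570, minus strand) was at 38.4, 60.2 and 46.5 normalized counts in the cKO and at 46.9, 56.7 and 31.3 in the control. The groups overlapped, with cKO b highest and control c lowest, and the log2 fold change was 0.09 (SE 0.32, 95% interval -0.61 to 0.79, limma adjusted p = 1.00, exact permutation p = 0.7). The log2 fold change of Arc was -0.07 without cKO library b and -0.12 without control library c. It stayed positive without any other library, at most 0.27.

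Ier2 encodes a small nuclear protein of the early response, and Dusp1 a phosphatase that switches off MAP kinases. Ier2 (ENSMUSG00000053560, chr8:84661331-84662852, minus strand) was at 227, 272 and 173 normalized counts in the cKO and at 187, 178 and 234 in the control. Both the highest and the lowest library were cKO libraries, and the log2 fold change was 0.17 (SE 0.19, 95% interval -0.24 to 0.57, limma adjusted p = 1.00, exact permutation p = 0.7). Dusp1 (ENSMUSG00000024190, chr17:26505590-26562128, minus strand), the gene with the full CRE, was at 671, 904 and 745 normalized counts in the cKO and at 761, 654 and 719 in the control. The cKO library b was above the other 5, which lay between 654 and 761, and the log2 fold change was 0.10 (SE 0.11, 95% interval -0.14 to 0.35, limma adjusted p = 1.00, exact permutation p = 0.5). Without cKO library b the log2 fold change of Dusp1 was -0.01. The 9 other MAP kinase phosphatase genes were all tested, and 0 had a limma p-value under 0.05, beside 2.79% of all genes tested. Of these 9, 0 had libraries that did not overlap, beside 7.67% of all genes tested. Dusp8 was the most abundant of the 9, at 7475 to 8830 normalized counts in the cKO and 7030 to 8396 in the control.

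**Figure D3:**
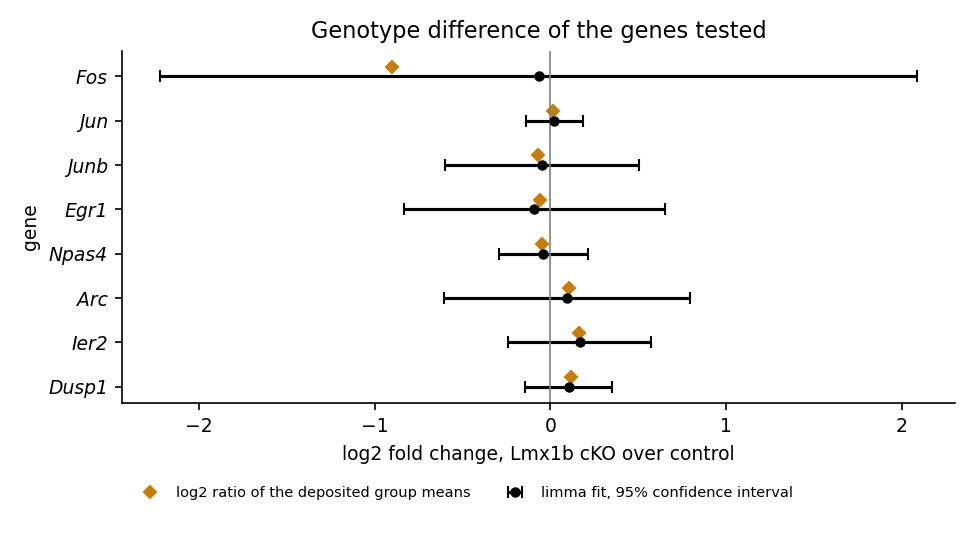
Fitted log2 fold change, cKO over control, with its 95% confidence interval for the 8 genes tested (black) and the log2 ratio of the deposited group means (orange). Each interval crosses 0, from the narrow one of Jun (-0.14 to 0.19) to the wide one of Fos (-2.22 to 2.09).

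The spread between libraries of the same genotype was described for each gene beside genes of like level, with a mean within 2-fold. The SD of log2(normalized count + 1) within groups was 1.60 for Fos, larger than that of 98.2% of 1859 genes of like level, whose median was 0.59. Without control library b, where Fos had 1 read, it was 0.59, larger than 52.4% of the same genes, so the large spread of Fos rested on that library. It was 0.52 for Egr1, larger than 85.4% of 2471 genes, 0.17 for Dusp1, larger than 84.7% of 4715 genes, and 0.27 for Ier2, larger than 81.0% of 3099 genes. Without cKO library b, it was 0.27 for Egr1, larger than 39.9%, and 0.11 for Dusp1, larger than 53.3%. For Ier2 it was 0.20 without cKO library c, larger than 59.8%, and 0.32 without cKO library a, larger than 88.6%. Npas4, Arc, Jun and Junb were nearer the middle or below it, at 52.7%, 52.2%, 42.1% and 21.5% of genes of like level. Without control library a, the SD was 0.039 for Jun (larger than 8.08%) and 0.069 for Npas4, beside a median of 0.123 for genes of its level. Junb varied less than most genes of its level with all 6 libraries and without any 1 of them, from 2.88% of these genes without control library b to 35.9%.

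**Figure D4:**
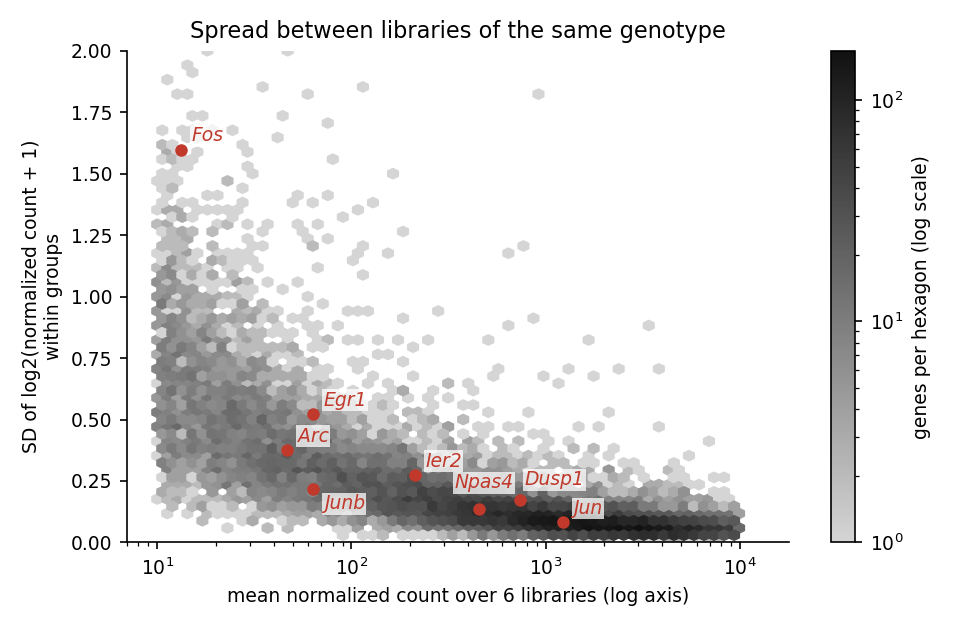
SD of log2(normalized count + 1) within groups against the mean normalized count (log axis), as the number of genes per hexagon for all 16680 genes tested and red points for the 8 immediate early genes. Fos lies near the upper edge of the genes of its level through control b, and 26 genes with an SD above 2 are outside the plot.

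The genes did not all rise and fall together across the 6 libraries, and 13 of the 28 pairs among the 8 had a positive Pearson r. As a description over 6 points that share the same libraries, r ran from -0.857 for Egr1 and Dusp1 to 0.986 for Fos and Junb. Relative to its mean over the 6 libraries, the log2 level averaged over the 8 genes was -0.06, 0.11 and -0.05 in cKO a, b and c and 0.05, -0.31 and 0.26 in control a, b and c. These averages follow Fos, which was at -2.38 in control b and 1.71 in control c, while no other gene left the range from -0.83 to 0.39. Fos and Junb were lowest in control b and highest in control c, whereas Arc was lowest in control c. The cKO library b was the highest for Arc, Ier2 and Dusp1 and the lowest for Egr1. Genes outside the lists with the pattern most like this average were Cacng1 (Pearson r = 0.993 over 6 libraries), Fam32a (r = 0.982), Gm29502 (r = 0.980), Atp5l (r = 0.974) and Tex10 (r = 0.971), a description over points that share the same libraries, and 25 of the genes tested had an r of at least 0.95.

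**Figure D5:**
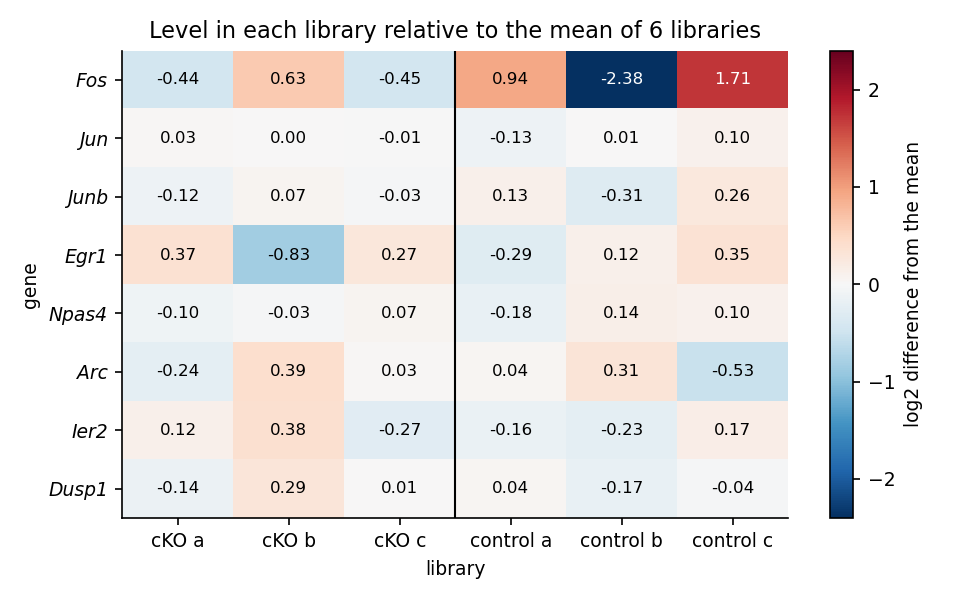
Log2 level of each of the 8 genes tested in each library relative to its mean over the 6 libraries, red for higher and blue for lower, with the value in each cell. Fos ranges from -2.38 in control b to 1.71 in control c, and no library is high or low for all 8 genes.

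Other genes of the same response were read from the same fit. Of 33 other early response genes, 31 were tested and 0 had a limma p-value under 0.05, beside 2.79% of all genes tested. Of the 31, 15 were higher and 16 lower. The median log2 fold change of the 31 was -0.003, with a range from -0.33 to 1.399. The highest was Gem (SE 0.80), with 24, 6 and 13 reads in cKO a, b and c. Its control libraries a, b and c had 20, 2 and 2 reads, where 3 or fewer is the floor. Rhob, a small GTPase and the most abundant of the other early response genes, was at 4500 to 5125 normalized counts in the cKO and 4796 to 5256 in the control. Of 14 genes of the delayed response, 13 were tested and 0 had a limma p-value under 0.05, beside 2.79% of all genes tested. Plk2, a kinase that acts at active synapses and the most abundant of the delayed genes, was at 4833, 4960 and 4818 normalized counts in the cKO and at 4611, 4713 and 4428 in the control, without overlap (log2 fold change 0.09, SE 0.05, limma adjusted p = 1.00), and Pcsk1, an enzyme that cleaves prohormones, was the other delayed gene without overlap, which makes 2 of the 13 tested beside 7.67% of all genes tested. Ptgs2, which makes prostaglandins, had no read in the cKO and 1 read in the control.

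The regulators upstream of the immediate early genes were read in every library of both genotypes. Of 23 kinases, factors and coactivators of the MAP kinase, SRF, CREB and MEF2 inputs, all were tested, 0 were higher and 1 was lower with a limma p-value under 0.05, beside 1.61% of all genes tested that were lower. This was Rps6ka5, a kinase that phosphorylates CREB and histone H3 at early gene promoters, at 540, 544 and 605 normalized counts in the cKO and at 726, 678 and 613 in the control. Its log2 fold change was -0.26 (SE 0.10, limma adjusted p = 1.00). The libraries did not overlap for 2 of the 23, Rps6ka5, which was lower, and Elk4, an SRF partner, which lay higher in the cKO (log2 fold change 0.13, limma adjusted p = 1.00), beside 7.67% of all genes tested.

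Markers of the cells that the dissection can hold and of stress were counted beside the immediate early genes. Of the 8 neuronal genes listed 4, and of the 8 progenitor genes listed 2, had more reads than the recovery covered. They were not tested and are not part of the sums below. Of the markers tested with limma, 0 of 8 endothelial, 0 of 5 pericyte, 0 of 8 microglial and 0 of 4 neuronal genes had a p-value under 0.05. Their summed normalized counts were 6065 to 6345 in the cKO and 5751 to 6389 in the control for endothelial genes and 938 to 1081 and 1017 to 1067 for microglial genes. Of 8 blood genes, 2 were higher (Hbb-bs and Hba-a1), with sums of 13527 to 17551 in the cKO and 12098 to 16643 in the control. Of 9 bone and mesenchyme genes tested, 1 was higher (Col3a1), with sums of 899 to 14316 and 876 to 1014. Of 6 progenitor genes 2 were lower (Slc1a3 and Hes5), of 8 mdDA genes 2 were lower (Ddc and Pitx3), of 4 midbrain genes 2 were lower (En1 and En2), and of 2 forebrain and hindbrain genes tested 1 was higher (Emx2). The summed normalized counts were 5862 to 6136 in the cKO and 5392 to 5897 in the control for pericyte genes, 19527 to 21915 and 19198 to 20914 for neuronal genes, 15753 to 18654 and 17180 to 20146 for progenitor genes, 9105 to 9306 and 9148 to 10784 for mdDA genes, 4851 to 5909 and 6121 to 6636 for midbrain genes and 755 to 880 and 662 to 754 for forebrain and hindbrain genes. These calls are unadjusted, beside 1.18% of all genes tested called higher and 1.61% called lower, and their part in the values of the immediate early genes was not tested. Of 12 heat shock genes, 9 were tested and 0 had a limma p-value under 0.05, with summed normalized counts of 23557 to 24254 in the cKO and 21916 to 23607 in the control, and Hsp90aa1 and Hsp90ab1 had more reads than the recovery covered.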

How the data were processed

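Total RNA was isolated with Trizol from midbrains of E14.5 embryos, and paired-end mRNA libraries were sequenced by a service provider, 3 per genotype. The submitters' processing notes name GRCm38.p4, TopHat 1.0.14, Bowtie2 2.1.0, HTSeq 0.6.1p1 and DESeq 1.10.1, while the study's methods name DESeq2, and the use of strand in counting is not given in the sources used here. The table that the authors deposited holds, as signal, the mean read counts per group and over all libraries after division by a size factor for each library, for 26852 genes and 3 lines that name no gene (31.8% of the mean counts, left out). Its ratio, log2, p-value, adjusted p-value and rank columns are the authors' own comparison and were not used.

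The whole reads per library that give each deposited mean were searched up to 30000 reads per group. A single answer was found for 26355 genes, which hold 69.5% of gene counts, 497 genes were above the search, and 0 of 1000 decoy values per group had an answer. The 16680 genes whose normalized counts averaged 10 or more entered a single fit (limma 3.58.1, R 4.3.3) that used voom weights, took genotype as its term and took the recovered size factors as offsets. Adjustment was Benjamini-Hochberg over these 16680 genes. The fit was tested on simulated data. The limma p-values set the difference between genotypes against the spread between libraries of pooled embryos. The spread between single embryos was not seen. Intervals of counts and of read ratios are 95% Poisson and binomial intervals, cover counting error only, and 3 reads or fewer was taken as the floor.

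Positions and exon lengths are from GENCODE M21 on GRCm38 (26693 of 26852 genes), and promoter windows from RefSeq on GRCm38.p6. Values were computed in Python 3.11.15 (pandas 2.3.3, scipy 1.17.1, numba 0.67.0 and numpy 2.4.6), and plots were drawn with matplotlib 3.10.9. The genes and lists were chosen with earlier results of these data known. Beside the 10 genes, the text names from each list the genes with an unadjusted p-value under 0.05, the most abundant gene and genes with no read in a group, the 5 genes most like the average of the 8 tested, and Lmx1b. Other genes, such as Pcsk1 and Elk4, were named after their values were seen, and some genes that this rule names are not reported here. Alternatives were limma-trend with pseudocounts of 1 and 10, minimum means of 50 and 100 and no minimum, other scalings, the ratio of the deposited means, fits without 1 of the 6 libraries and, added after seeing the data, a block for each possible pairing of cKO and control libraries.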

Additional observations from a re-analysis of the deposited data

How the results depend on the processing

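Under limma-trend with pseudocounts of 1 and 10, other minimum means, recomputed size factors and upper quartile scaling, 0 immediate early genes had a p-value under 0.05. With the ratio of the deposited means added, the 58 log2 fold changes of single genes under these settings kept their direction, while the median of the genes tested turned from -0.008 to 0.063 with a minimum mean of 100, where fewer genes were tested. The count over all genes was 303 with a minimum mean of 100 and 971 with no minimum, beside 466. With no minimum, Fosb had a log2 fold change of -1.12 and Egr2 of 1.22, each with a limma adjusted p = 0.978. Leaving out 1 library at a time, the count of immediate early genes with a p-value under 0.05 ran from 0 to 1 (Fos, without control b), that of other early response genes from 0 to 2 (2 without control a), that of all genes from 338 to 639, and that of all genes after adjustment from 0 to 3 (3 without control a). The number of the 10 genes whose libraries did not overlap ran from 0 to 2 (Fos and Junb without control b, beside 17.3% of all genes tested without that library), and the median log2 fold change of the 8 from -0.024 to 0.073. The log2 fold changes ran from -1.43 to 0.74 for Fos, -0.043 to 0.072 for Jun, -0.22 to 0.054 for Junb, -0.33 to 0.28 for Egr1, -0.15 to 0.025 for Npas4, -0.12 to 0.27 for Arc, 0.024 to 0.33 for Ier2 and -0.013 to 0.21 for Dusp1, so among the 8 genes the direction held in each of these fits for Ier2 alone. The cause of these moves, beyond fewer libraries or another number of genes tested, was not tested. At 0 to 10 reads per library, depth limits what could be seen for Fosb and Egr2, whereas the control libraries of Fos differed by more than counting error. The deposited headers number the libraries 1 to 3 in both genotypes, but which recovered library has which number is not known, so each of the 6 possible pairings was fitted as a replicate block, an alternative chosen after seeing the data. In these fits 0 immediate early genes and 0 other early response genes had a p-value under 0.05, the count of all genes ran from 345 to 685, and the count after adjustment was 0, 0, 3, 4, 1 and 1. The block kept the direction of all 8 genes, with Fos at -0.82 to -0.67.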
